A study of Mus musculus with 12 samples.

Results

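The calls analysed here came from MNase-seq, in which micrococcal nuclease digests the DNA between nucleosomes and the protected fragments are sequenced. A position called across both stages was defined as a place on an autosome where nucleosome calls lay close together in at least 2 of 3 lists from meiotic germ cells and at least 2 of 3 lists from round spermatids. Each call was reduced to its midpoint, 10 kb bins holding more than 20 calls in any list were left out as dense bins, and midpoints of all 6 lists within 73 bp of the next were joined into 1 position. Of 236505 pooled positions, 347 met the rule, which is 0.147%. They held 5605 of 356553 pooled calls (1.57%). The calls themselves chose these positions, so the number of lists, the read levels and the closeness of their midpoints are given as descriptions, with no test.

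The 12 samples formed 6 groups of 2, with 0.5, 1 or 2 U of MNase in each of 2 stages. All came from testes of male SV129 mice aged 8 to 12 weeks, and the labels name no mutation, other allele or drug. Germ cells were separated by STAPUT velocity sedimentation, with testes of 11 mice pooled per collection and fractions of at least 85% purity pooled again. Purity was judged under the microscope from DAPI stain. The titles call the earlier stage meiotic spermatid, while the protocol calls the fraction meiotic. It is written M here, without deciding between these names, and round spermatids are written RS. Digestion lasted 7.5 min at 37 °C, and an RS reaction took 2 times the cells of an M reaction. The authors made each list from both replicates of a group. No value per replicate was analysed, and the 3 amounts are not replicates of a stage: the smallest p of a two-sided sign-flip test over them would be 0.25. Calls on genomic DNA hold no transcript level, so the labelled stages could not be checked against marker genes.

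In round spermatids the genome is still packaged in nucleosomes, many of which carry histone variants of the testis. Most of these histones are later replaced by transition proteins and then protamines, a process preceded by histone acetylation. A nucleosome that sits at the same bases in many cells, called a well-positioned nucleosome, leaves overlapping fragments with a common midpoint after MNase digestion. Most nucleosomes of a genome are not placed so regularly.

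Lists held between 27101 (RS at 2 U) and 179133 calls (RS at 0.5 U), and the sequenced depth behind them is unknown. Every call covers 140 bp and has a p-value that matched an upper tail of a Poisson distribution, from which a number of reads was implied, with 6 reads as the smallest in each list. With rising amounts of MNase, the mean coverage implied by these tails was 0.434, 0.484 and 0.507 reads in M. The corresponding values for RS were 0.696, 0.472 and 0.409. Where a p-value was below 1e-300, the implied reads are a lower bound and are written with "at least". Values at 1 position in 6 lists are given in the order M at 0.5, 1 and 2 U and then RS at 0.5, 1 and 2 U.

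Most of these positions lay away from gene starts, but 4 of them reached into a promoter window of a protein-coding gene, from 250 bases before to 50 bases after a start site. The windows below, credited to RefSeq (assembly GRCm38.p6 of C57BL/6J) and given 5′ to 3′ on the strand of the gene, show what lay under these calls. A window of Gm41331, a long non-coding RNA gene, is added because it held a position of all 6 lists; it was chosen after its values were seen. Capitals mark the bases covered by a call in every list that held the position, and lower case the rest. The windows are those of Hjurp (chr1:88277530-88277829, minus strand), Stam (chr2:14073850-14074149, plus strand), Gm5373 (chr8:71858068-71858367, minus strand), Slc35b1 (chr11:95384606-95384905, plus strand) and Gm41331 (chr15:60141661-60141960, plus strand).
Hjurp: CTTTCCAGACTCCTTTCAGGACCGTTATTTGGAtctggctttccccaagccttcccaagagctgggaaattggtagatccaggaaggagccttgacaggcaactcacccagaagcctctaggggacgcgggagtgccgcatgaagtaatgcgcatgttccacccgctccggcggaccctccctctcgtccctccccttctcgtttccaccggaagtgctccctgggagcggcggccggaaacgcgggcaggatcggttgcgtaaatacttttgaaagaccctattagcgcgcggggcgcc
Stam: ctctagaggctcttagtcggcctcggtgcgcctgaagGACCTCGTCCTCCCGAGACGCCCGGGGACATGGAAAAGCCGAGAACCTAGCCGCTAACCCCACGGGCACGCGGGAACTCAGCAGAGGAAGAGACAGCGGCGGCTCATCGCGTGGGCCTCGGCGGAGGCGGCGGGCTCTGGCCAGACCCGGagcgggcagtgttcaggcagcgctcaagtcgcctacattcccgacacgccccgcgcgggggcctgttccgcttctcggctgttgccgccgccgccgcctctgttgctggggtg
Gm5373: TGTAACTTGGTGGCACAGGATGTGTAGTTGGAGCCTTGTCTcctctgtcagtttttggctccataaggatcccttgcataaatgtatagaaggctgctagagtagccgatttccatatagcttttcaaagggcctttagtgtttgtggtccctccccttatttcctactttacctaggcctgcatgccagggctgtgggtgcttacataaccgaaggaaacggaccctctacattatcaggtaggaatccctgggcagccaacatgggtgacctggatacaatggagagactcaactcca
Slc35b1: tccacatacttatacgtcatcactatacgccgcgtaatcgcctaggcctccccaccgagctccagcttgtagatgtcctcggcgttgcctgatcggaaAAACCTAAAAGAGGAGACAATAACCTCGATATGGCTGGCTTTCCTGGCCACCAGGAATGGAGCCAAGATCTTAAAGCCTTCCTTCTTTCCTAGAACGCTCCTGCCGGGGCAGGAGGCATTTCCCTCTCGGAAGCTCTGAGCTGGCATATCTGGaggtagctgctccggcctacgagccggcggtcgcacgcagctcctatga
Gm41331: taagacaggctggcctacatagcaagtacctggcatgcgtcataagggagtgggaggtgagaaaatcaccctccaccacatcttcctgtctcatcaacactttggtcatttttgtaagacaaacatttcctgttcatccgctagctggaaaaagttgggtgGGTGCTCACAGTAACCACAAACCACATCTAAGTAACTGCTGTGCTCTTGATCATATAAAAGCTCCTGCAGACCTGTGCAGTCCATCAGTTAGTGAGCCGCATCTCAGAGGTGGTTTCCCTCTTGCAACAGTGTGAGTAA

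Slc35b1, a nucleotide transporter of the endoplasmic reticulum, had the fullest record of the 4 protein-coding promoters. Its position was called with 8, 6 and 8 reads in M and with 7 and 8 reads in RS at 0.5 and 1 U, and was not called in RS at 2 U. The centre of the position lay 69 bases before the start site, and 153 bases of the window were covered in all 5 lists. Stam, an adaptor protein of endosomal sorting, had 7 and 6 reads in M at 1 and 2 U and 7 and 7 reads in RS at 0.5 and 1 U. Its centre lay 138 bases before the start site of the printed window, but at the edge of the annotated gene, which begins at chr2:14073962. The same calls overlapped the window of the antisense gene Stamos, with the centre 28 bases before that start site. Hjurp, the chaperone that loads the centromeric histone CENP-A, had 6 and 11 reads in M at 1 and 2 U and 7 and 6 reads in RS at 0.5 and 1 U. Only 33 bases of its window were covered in every list, since the centre lay 264 bases before the start site. Gm5373, a gene with no family name, had 6 and 7 reads in M at 0.5 and 2 U and 9 and 7 reads in RS at 0.5 and 1 U. Its centre lay 282 bases before the start site of the printed window, but inside the annotated gene body (chr8:71824700-71880519). None of these 4 promoters was called in RS at 2 U, the smallest list. Apart from the 11 reads of Hjurp in M at 2 U, their values were 6 to 9 reads, so a few reads decide whether a list holds them.

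The windows differed in base composition. That of Stam had 69.7% G and C and 35 CG dinucleotides, and that of Hjurp 59.7% and 22. The window of Slc35b1 had 55.7% and 19, against medians of 52.7% and 7 over 32851 windows. Gm5373 had 48.3% and 3 CG, and the window of Gm41331 had 47% and 3. On either strand, TATAAA was found in the printed window of Gm41331 only, among the bases covered in all 6 lists, and it occurs in 13.6% of all windows. CCAAT was found in the window of Hjurp only, against 37.4% of all windows. Neither GGGCGG (35.7% of all windows) nor TGACGTCA (1.79%) was in any of the 5 printed windows. These are matches of letters, not of bound sites. Gm41331 was the strongest of the 5, with 22, 16 and 32 reads in M and 35, 35 and 21 in RS, and its calls were centred 6 bases after the start site of the printed window. A second annotated start site of the gene lay farther from the centre, by 91 bases, and its window had 54 bases covered in all 6 lists and no TATAAA. The ranges of M and RS overlapped there.

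Among the 347 positions, 121 were held by 4 lists (34.9%, exact binomial 95% interval 29.9 to 40.1), 111 by 5 (32.0%) and 115 by all 6 (33.1%, 28.2 to 38.4). These intervals, and those below, cover counting error only. The number moved by more than 1.5 times when a list was left out and the rule kept: it was 202 without M at 1 U, 199 without M at 2 U and 202 without RS at 0.5 U. Just outside the rule, 585 positions were a list short in 1 stage, with a median of 7 reads. The 121 positions just inside it, with 2 lists of each stage, had the same median of 7, and those of all 6 lists had 14. On the side of the dense bins, 86 of the positions lay in bins of 16 to 20 calls, and 77 more would have met the rule in bins of 21 to 25 calls. With no bins left out, 1386 positions would have met it, 74.96% of them in dense bins.

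**Figure D1:**
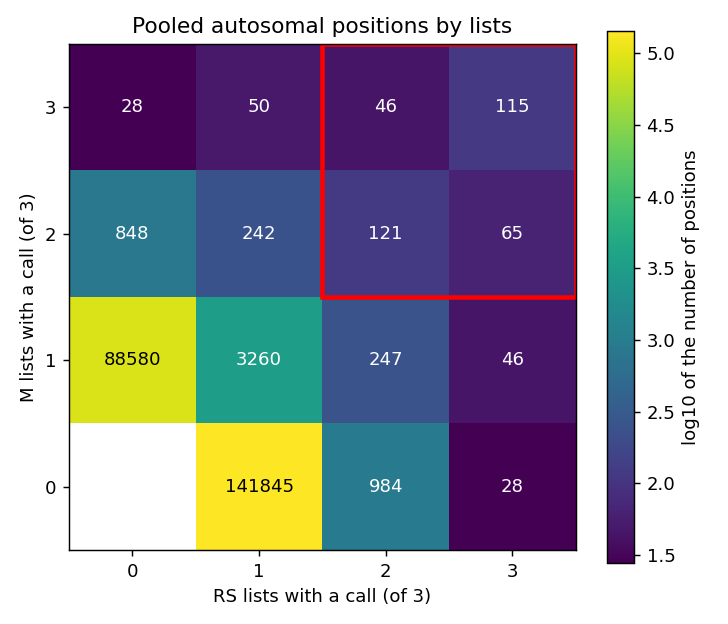
Numbers of pooled autosomal positions by the number of M lists (vertical axis, 0 to 3) and RS lists (horizontal axis, 0 to 3) that held them, with color giving log10 of the number and the red frame the positions called across both stages. The framed cells hold 121, 65, 46 and 115 positions, and the neighbouring cells with 1 list of a stage hold 46 to 247.

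The positions were counted next by the lists that shared them. Per possible combination of lists, positions of exactly 2 lists numbered 283 within M, 328 within RS and 362 across stages. Positions of exactly 4 lists numbered 13.4 per combination where each stage gave 2, 16.7 where M gave 3, and 15.3 where RS gave 3. Positions of 3 lists of M alone numbered 28, and those of RS alone also 28, against 115 of all 6. Where only 1 list was missing, it was most often M at 0.5 U (44 positions) or RS at 2 U (30), and least often RS at 0.5 U (3). Both M at 0.5 U and RS at 2 U were missing at 36 positions. These are the lists of lowest implied coverage in their stage, and the largest list, RS at 0.5 U, held the most of these positions. In order, the lists held 238, 306, 311, 325, 293 and 256 of them, or 68.6%, 88.2%, 89.6%, 93.7%, 84.4% and 73.8%. As a share of the positions of a list, they ranged from 0.291% in RS at 0.5 U to 1.81% in RS at 2 U.

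The positions were described further by their reads. In the lists that held them the median was 8, 9 and 9 reads in M and 9, 8 and 8 in RS, with lower quartiles of 7 in each list and upper quartiles of 12 to 14. The highest values, all lower bounds, lay between at least 142 and at least 147 reads in the M lists and between at least 138 and at least 154 in the RS lists. At least 10 reads were implied at 37.5% (RS at 1 U) to 47.9% (M at 2 U) of the positions of a list, against 0.508% to 0.783% of all pooled positions of a list. At the minimum of 6 reads were 11.1% to 24.2% of these positions, against 71.8% to 79.9% of all. The upper tail was long: of the 115 positions in all 6 lists, 52 had at least 10 reads in every list, 23 at least 20 and 18 at least 30. Most of the set thus stood a few reads above the minimum, and a small number stood far above it.

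**Figure D2:**
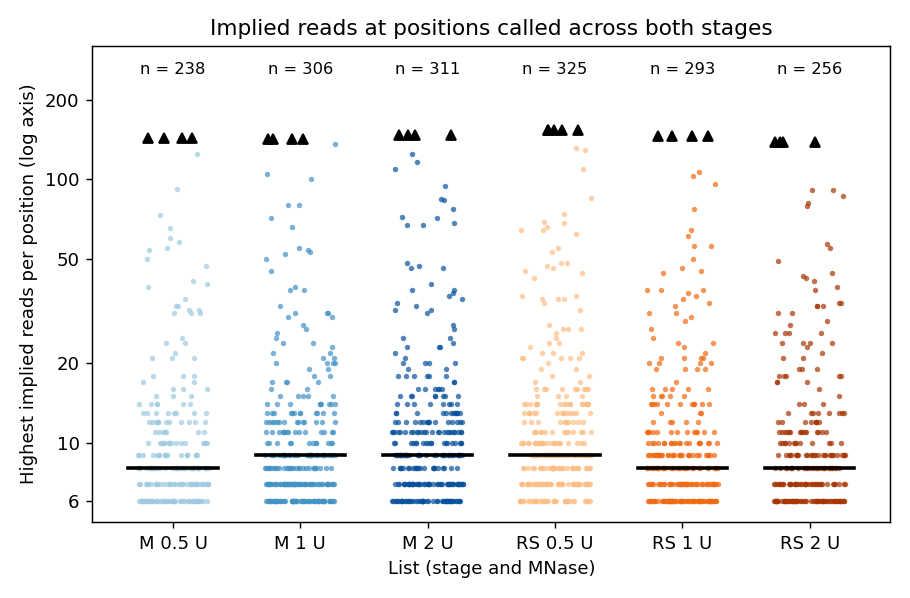
Highest implied reads (log axis) at each position called across both stages, by list, with 1 point per position, a bar at the median and triangles for lower bounds. Medians lie at 8 or 9 reads in each list, and 4 or 5 positions per list reach the upper bound of what the p-values resolve.

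The 12 positions with the highest reads in their lowest list included 4 at which the p-values gave only lower bounds in each list: from at least 142 to at least 147 reads in M, and from at least 138 to at least 154 in RS. The position at chr6:103649097-103649311 lay inside Chl1, a neural cell adhesion molecule. That at chr9:35305302-35305611 lay in Gm33838. Those at chr4:64497737-64498081 and chr12:3109922-3110141 lay in no annotated gene, 451 kb from Tnc, which encodes the matrix protein tenascin C, and 137 kb from Rab10, a small GTPase of vesicle transport. The 4 could not be ranked, nor their stages compared, since each value is a bound. Implied mean coverage was only 0.409 to 0.696 reads per list. Repeats, copy number and mappability were not annotated for any position, and their part in such read levels was not tested.

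The other 8 were resolved in all or nearly all lists. At chr1:183299352-183299611, inside Aida, which encodes a partner of axin, there were 92, 105 and 116 reads in M and 129, 103 and 86 in RS. A second position overlapped it at chr1:183299202-183299396, with 55, 54 and 71 reads in M and 69, 37 and 55 in RS. Both had overlapping ranges in M and RS. At chr11:54140102-54140311, 8.54 kb from P4ha2, a collagen-modifying enzyme, there were 73, 100 and 109 reads in M, against 109, 77 and 81 in RS. At chr18:40308092-40308401, inside Kctd16, an auxiliary subunit of GABA-B receptors, there were 60, 80 and 94 reads in M and 131, 96 and 91 in RS. In raw reads the lowest RS value there was below the highest M value, so the ranges overlapped as well. Over the list mean, however, all RS values at Kctd16 lay above all M values. That held at 3 (2.73%) of the 110 positions in all 6 lists with no value that is only a bound. At chr12:74804292-74804501, 92.8 kb from the potassium channel gene Kcnh5, M had 50, 71 and 84 reads and RS had 66, 64 and 79. At chr16:57391402-57391701, inside the overlapping genes Cmss1 and Filip1l, M had 39, 80 and 83 reads and RS had 48, 56 and 57. That position had its lowest value at 0.5 U in both stages, although RS at 0.5 U had the highest implied coverage of the 6 lists.

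The remaining 3 of the 12 lay side by side in E030030I06Rik on chromosome 10. The position at chr10:22142297-22142686 had 65, 53 and 77 reads in M and 74, 56 and 43 in RS. The middle one, at chr10:22142622-22142861, had 58, 66 and 67 reads in M and 85, 61 and 42 in RS. Its ranges overlapped in raw reads, while over the list mean all its M values lay above all its RS values. That held at 10 (9.09%) of the 110 positions in all 6 lists without bounds. At chr10:22142852-22143141 there were 125, 136 and 125 reads in M and at least 154, then 106 and 91, in RS. In all 3 the raw reads of RS were highest at 0.5 U and lowest at 2 U, the order of implied coverage in RS. Their centres were 250 and 255 bp apart.

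**Figure D3:**
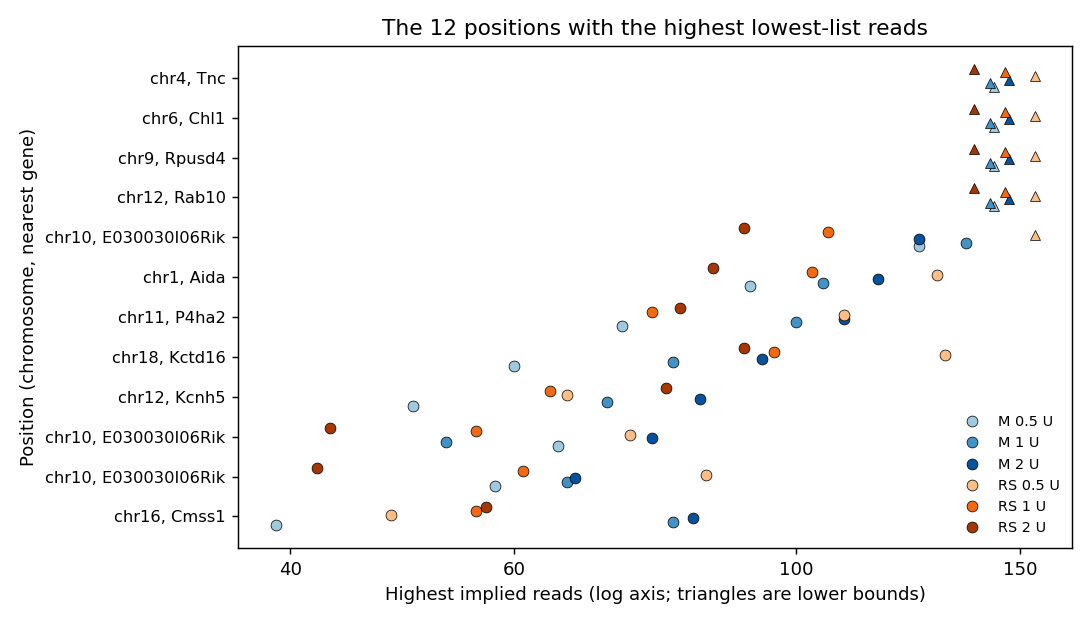
Highest implied reads (log axis) in each of the 6 lists at the 12 positions with the highest lowest-list reads, labelled by chromosome and nearest protein-coding gene, with M in blue, RS in orange and darker shades for more MNase. Triangles are lower bounds, and in raw reads, as drawn, the ranges of M and RS overlap at each resolved position. Over the list mean they do not overlap at Kctd16 (RS above) or at chr10:22142622-22142861 (M above).

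Several other positions in named genes had at least 10 reads in every list; they were chosen for mention after their values were seen. Lars2, the mitochondrial leucyl-tRNA synthetase, had 35, 55 and 72 reads in M and 68, 46 and 49 in RS. Vps45, a regulator of membrane fusion, had 54, 31 and 32 in M and 47, 38 and 31 in RS. Camk1d, a calcium-dependent kinase, had 33, 25 and 34 in M and 36, 29 and 29 in RS. Ranges overlapped in all 3. Jarid2, a subunit of the Polycomb complex PRC2, held a pair of positions, with 24, 26 and 22 reads in M and 32, 22 and 28 in RS at the stronger. Cdk8, a kinase of the Mediator complex, had 18, 27 and 38 reads in M and 21, 19 and 24 in RS. Gphn, which encodes the scaffold protein gephyrin, had 16, 33 and 27 reads in M and 44, 38 and 34 in RS. In raw reads its 3 RS values lay above its 3 M values, while over the list mean the ranges overlapped. In all, 91 protein-coding genes held a position, 28 of them with provisional symbols (Gm or LOC numbers, clone names ending in Rik, and the like). Of the other 63, 26 held a position of all 6 lists. Overlapping genes were each counted, so several can share 1 position. Examples are Cmss1 with Filip1l, and the Ugt1a genes at chr1:88213087-88213511.

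Reads at the same position were then set side by side between the stages at each amount. At 0.5 U, 229 positions were called in both lists, 9 in M only and 96 in RS only. At 1 U these numbers were 260, 46 and 33, and at 2 U they were 231, 80 and 25. The stage with the larger list thus held more positions alone at each amount. Where both lists held a position, median reads were 8 in M and 10 in RS at 0.5 U, 9 and 9 at 1 U, and 11 and 9 at 2 U. The median ratio of RS to M was 1.17, 1.00 and 0.875, while the ratio of implied coverage was 1.60, 0.977 and 0.807. After division by the list mean, the median ratio became 0.730, 1.02 and 1.08. In the set, the direction between the stages therefore turned with the scale and with the amount of MNase. All pooled positions called in both lists, which contain the set, had a median ratio of 1 in reads at each amount. Over the list mean their median ratios were 0.623, 1.02 and 1.24. At the same amount RS was digested with 2 times as many cells, so stage and extent of digestion cannot be told apart.

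Differences of at least 2-fold were few. On reads over the list mean, RS was at least 2-fold higher at 3, 6 and 10 of these positions at 0.5, 1 and 2 U, which is 1.31%, 2.31% and 4.33%. Among all pooled positions called in both lists the shares were 0.281%, 1.37% and 2.1%. M was at least 2-fold higher at 22, 2 and 3 positions, or 9.61%, 0.769% and 1.30%, against 7.3%, 0.342% and 0.63% of all. The background contains the set, which made up 3 of 3, 6 of 8 and 10 of 10 of the positions higher in RS and 22 of 78, 2 of 2 and 3 of 3 of those higher in M. Among the 115 positions in all 6 lists, 110 had no value that is only a bound. On this scale RS was higher at 3 of 3 amounts in 10 of them (9.09%) and M in 22 (20%), and 78 were mixed. For 544 such positions with dense bins included, which contain the 110, the shares were 10.7% and 17.5%. All 3 RS values lay above all 3 M values at 3 positions (2.73%), and all 3 M values above all RS values at 10 (9.09%), where the shares among the 544 were 4.78% and 8.46%. In raw reads, RS was higher at 3 of 3 amounts in 11 positions (10%) and M in 8 (7.27%), against 8.27% and 8.09% of the 544. The groups did not overlap at 5 (4.55%, RS above) and 4 (3.64%, M above), against 4.6% and 2.76%. The shares of the 110 were thus near those of the 544 on both scales.

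Within a stage, the amounts of MNase differed more in RS than in M. Reads over the list mean at these 110 positions had medians of 27.7, 26.9 and 27.6 in the M lists. The RS lists had 20.1, 28.6 and 29.3. In RS the values of 50 positions (45.5%) ascended with the amount, those of 6 (5.45%) descended and 54 did neither, and 87 (79.1%) were higher at 2 U than at 0.5 U. The shares among the 544 were 36.6%, 5.70% and, for values higher at 2 U, 74.8%. In M 31 (28.2%) ascended, 13 (11.8%) descended and 66 did neither, and 60 (54.5%) were higher at 2 U. Among the 544 these shares were 21.3%, 18.9% and 46.9%. The median ratio of 2 U to 0.5 U was 1.33 in RS and 1.06 in M, against 1.27 and 0.984 among the 544. Medians of raw reads were 12, 13 and 14 for M, against 14, 13.5 and 12 for RS, so in RS the direction turned with the scaling. The implied coverage of RS at 0.5 U, the highest of the 6, moves with this pattern, and its part was not tested.

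Midpoints of the 2 stages lay close together, as joining within 73 bp favours. The median distance between the median midpoints of M and RS was 14 bp, with quartiles of 5 and 30 bp. It was at most 10 bp at 152 positions (43.8%) and over 73 bp at 23 (6.63%), the largest being 189.5 bp. Over pairs of lists, the median distance was 17 to 18.5 bp within M, 16.5 to 21 bp within RS, 15 to 20 bp between stages at the same amount and 17 to 20 bp between stages at other amounts. The ranges within a stage and between stages overlapped. The midpoints of a position spanned a median of 95 bp, from 30 to 755 bp, over a median of 12 calls. At 232 positions (66.9%) they spanned no more than 2 joining distances, about the length of DNA wrapped by a nucleosome, and the median distance there was 10 bp. The other 115 joined calls over a longer stretch and hold more than 1 placement. Across the 115 positions in all 6 lists, the rank correlation of reads between lists, given as a description across positions, with bounds taken at their value, was 0.725 to 0.880 within M, 0.806 to 0.864 within RS and 0.665 to 0.880 between stages. The points share their sequence in every list, and the labels do not say whether the lists of a stage share cells.

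The positions were placed along chromosomes next. Chromosome 14 held 53 of them (15.3%, against 5.07% of all pooled positions), chromosome 12 held 42 (12.1% against 5.06%) and chromosome 8 held 40 (11.5% against 5.14%). Chromosome 1 held 16 (4.61% against 8.52%), and chromosomes 15, 9 and 18 held 4, 5 and 5. Positions no more than 1 Mb from the next were grouped into 124 loci, a distance chosen after the data were seen. Of these loci 81 had 1 position, and 17 with at least 5 positions together held 204, or 58.8%.

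**Figure D4:**
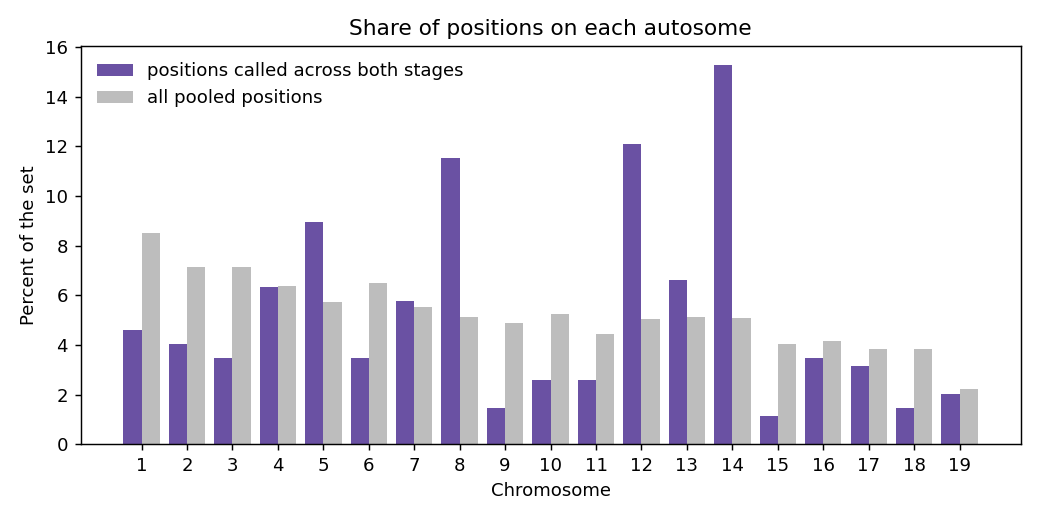
Share of the 347 positions called across both stages and of all 236505 pooled positions on each of 19 autosomes, in percent. Chromosomes 14, 12 and 8 hold 15.3%, 12.1% and 11.5% of the set against about 5% of all positions each.

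The locus with the most positions, chr14:3129937-8286911, held 38, of which 8 were in all 6 lists, among 594 pooled positions (6.40%). It spans 85 protein-coding genes, 75 of them with provisional symbols. Within it, Gm32966 held 6 positions, 3 of them in all 6 lists, and the long non-coding RNA genes Gm32041 and Gm51421 held 6 and 5. At chr14:4145977-4146341 in Gm32966 there were 12, 10 and 10 reads in M and 14, 7 and 9 in RS, with overlapping ranges. A second locus of this chromosome, chr14:19570342-19884291, held 12 positions, 6 of them in all 6 lists, among only 46 pooled positions. Gm2237 held 4 of them and Gm5458 held 3. The position of all 6 lists in Gm2237 had 21, 14 and 18 reads in M and 24, 9 and 13 in RS. On chromosome 8, the locus chr8:19693964-20988011 held 35 positions, 14 in all 6 lists, among 397 pooled positions (8.82%), and contained 41 dense bins. It contains Defb33, a gene of the beta-defensins, which are antimicrobial peptides, and the transcribed pseudogene 2610005L07Rik held 4 positions. At chr8:20409742-20410041 in that pseudogene there were 13, 13 and 11 reads in M and 10, 8 and 8 in RS. All M values thus lay above all RS values, in raw reads and over the list mean. At the other positions of all 6 lists in the pseudogene, the ranges overlapped on both scales. Among the 544 positions used above, all M values lay above all RS values at 2.76% in raw reads and 8.46% over the list mean.

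The immunoglobulin heavy chain locus Igh, whose variable segments are many similar copies, held 25 positions, the most of any annotated gene. Its entry spans 2751 kb and held 882 pooled positions, and the rank takes no account of this size. Of the 25, 2 were in all 6 lists, against 33.1% of the whole set. As a share of pooled positions, however, 2 of 882 is more than the 115 of all 236505 that were in all 6 lists. At chr12:115189602-115189993 there were 7, 9 and 8 reads in M and 11, 9 and 7 in RS, and at chr12:115662952-115663341 there were 8, 12 and 13 in M and 7, 8 and 8 in RS. Igk, the kappa light chain locus, held 2 positions among 430 pooled positions.

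Zinc finger genes formed the next group. The locus chr4:144546747-147794471 held 17 positions among 700 pooled positions (2.43%) and contained 44 dense bins. It contains 15 Zfp genes, but just 1 position was in all 6 lists. Zfp978 and Zfp993 held 4 positions each. The position of all 6 lists, in Zfp978, had 6, 6 and 8 reads in M and 9, 9 and 8 in RS. Over the whole set a Zfp gene was the nearest protein-coding gene at 38 positions (10.95%), against 1.64% of all pooled positions. Of the 38, however, 20 lay 36.1 to 1242 kb from Zfp386, and 19 of these are positions inside Igh already counted above. Within 20 kb of a nearest Zfp gene, a distance chosen after the data were seen, lay 17 positions (4.90%, 2.88 to 7.73). The share was 0.853% of all pooled positions, 2.05% of the positions recurrent in M alone and 3.26% of those recurrent in RS alone, and the interval of the last (2.26 to 4.55) overlapped that of the set.

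Families of testis and vomeronasal genes were nearest to some positions, inside the gene or up to 39.8 kb away. Speer genes, which encode glutamate-rich proteins of the testis, were nearest at 8 positions (2.31% against 0.141% of all). All 8 lay in the locus chr5:14900667-15712246, which held 14 positions among 264 pooled positions (5.30%). A Speer gene was nearest at 0.342% of positions recurrent in M alone and 1.28% of those recurrent in RS alone. The interval of the latter (0.686 to 2.19) overlapped that of the set (1.00 to 4.49). Within 20 kb of a nearest Speer gene lay 4 positions (1.15%), against 0.0448% of all, 0.342% and 0.889%. The position at chr5:15643602-15644091, 19.98 kb from Speer4d, had 9, 12 and 12 reads in M and 9, 14 and 9 in RS. A position inside Speer4c, at chr5:15712017-15712246, had 8 and 6 reads in M at 0.5 and 1 U and 14, 8 and 8 in RS. A further 7 positions lay at chr5:26007374-26076236, around Speer4a, among 29 pooled positions (24.1%). Tdpoz genes, which encode TRAF and POZ domain proteins, were nearest at 5 positions (1.44% against 0.0685% of all), and none of these was in all 6 lists. Of positions recurrent in M alone and in RS alone, 0.457% and 0.395% had a nearest Tdpoz gene. Their intervals (0.125 to 1.16 and 0.108 to 1.01) overlapped that of the set (0.469 to 3.33). Vmn2r genes, receptors of the vomeronasal organ, were nearest at 12 positions (3.46% against 0.663%). The locus chr7:7356437-8423186 held 7 of them, among 205 pooled positions (3.41%). The one in Vmn2r44 was in all 6 lists with 7, 6 and 7 reads in M and 7, 8 and 10 in RS. Of positions recurrent in M alone and in RS alone, 1.60% and 1.09% had a nearest Vmn2r gene. Their intervals (0.876 to 2.67 and 0.544 to 1.94) overlapped that of the set (1.80 to 5.96). Olfactory receptor genes were nearest at 6 positions (1.73% against 1.47% of all), but only 1 of these was within 20 kb.

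Provisional symbols were the most frequent label. The nearest protein-coding gene had one at 141 positions (40.6%), against 5.97% of all pooled positions, 15.5% of 876 positions called in at least 2 M lists and no RS list, and 16.5% of 1012 positions called in at least 2 RS lists and no M list. Pseudogene bodies held 7.49% of the set, against 1.34% of all, 3.77% and 4.94%. Protein-coding gene bodies held 111 (32.0%), against 35.4% of all, 29.1% and 32.6%, and 157 (45.2%) were in no annotated gene, against 55.3% of all. Of 342 positions on chromosomes with start sites in the table, 9 (2.63%, 1.21 to 4.94) lay within 1000 bp of a protein-coding start. The share was 1.63% of all, which is inside that interval, 5.22% of those recurrent in M alone and 2.74% of those recurrent in RS alone. Bins of 11 to 20 calls held 189 positions (54.5%), against 1.43% of all, but the rule favours positions with many calls of their own. With the calls of the position itself taken out, 120 (34.6%) lay in bins with 11 to 20 others in a list, against 1.21% of all, 11.3% and 10.5%. Within 10 kb of a dense bin lay 95 (27.4%), against 0.665% of all, 6.74% of those recurrent in M alone and 7.31% of those recurrent in RS alone. The number of lists and the stages cannot be told apart in these contrasts, because the other sets were held by 2 or 3 lists.

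**Figure D5:**
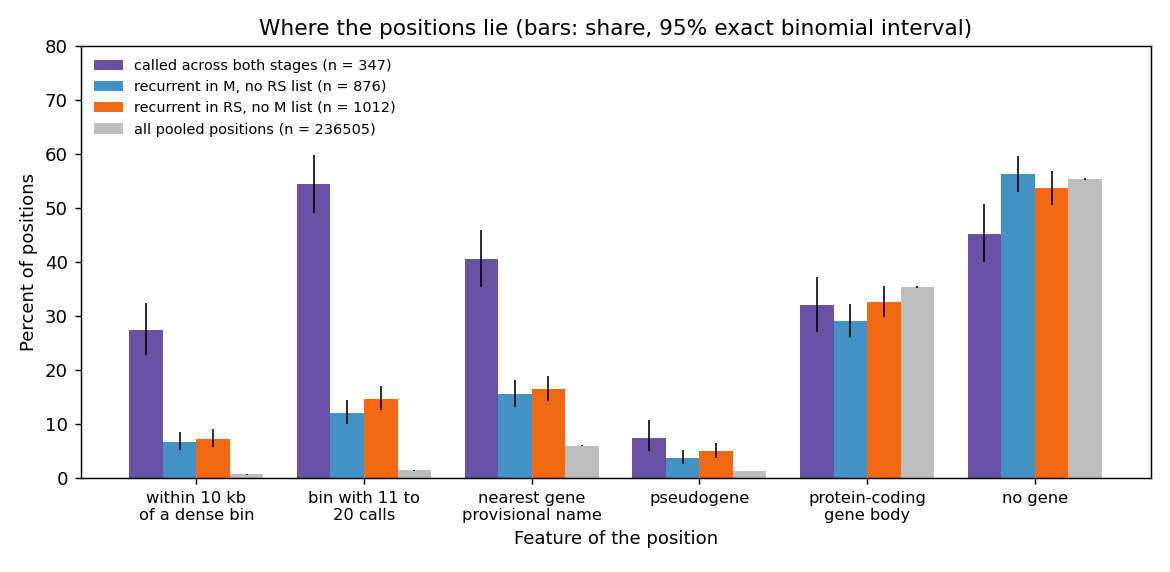
Percent of positions with each of 6 features, for the 347 positions called across both stages, the 876 recurrent in M alone, the 1012 recurrent in RS alone and all 236505 pooled positions, with exact binomial 95% intervals as lines. Bins are counted with the calls of the position itself. Closeness to dense bins (27.4%) and provisional gene symbols (40.6%) are more frequent in the set, while protein-coding gene bodies hold about the same share of each.

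A comparison at an equal number of lists was added after the data were seen. The 121 positions with 2 lists of each stage were set beside 96 positions with 3 lists of a stage and 1 of the other, which do not meet the rule. Bins of 11 to 20 calls held 52.9% (43.6 to 62.0) of the former and 53.1% (42.7 to 63.4) of the latter. Provisional symbols were nearest at 48.8% (39.6 to 58.0) and 44.8% (34.6 to 55.3). Within 10 kb of a dense bin lay 30.6% (22.5 to 39.6) and 24.0% (15.8 to 33.7), and in protein-coding gene bodies 26.4% (18.8 to 35.2) and 26.04% (17.6 to 35.999). Median reads were 7 in both. At 4 lists, then, a balanced and an unbalanced split between the stages had shares whose intervals overlapped in each of these features.

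The assembled ends of chromosomes held more of these positions than of all positions. Within 500 kb of the first pooled position of a chromosome lay 19 of them, on 8 chromosomes (5.48%, 3.33 to 8.42), against 0.411% of all pooled positions, 0.799% of those recurrent in M alone and 0.593% of those recurrent in RS alone. In mouse chromosomes this side adjoins the centromere. Of the 19, 11 were in all 6 lists. Examples are chr2:3050162-3050391, with 15, 18 and 21 reads in M and 19, 20 and 18 in RS, and chr13:3372917-3373191, with 40, 38 and 46 in the M lists and 53, 45 and 33 in RS. Within 500 kb of the last pooled position lay 17 more, on 4 chromosomes (4.90%, 2.88 to 7.73), against 0.391% of all. The shares were 0.799% of positions recurrent in M alone and 0.692% of those recurrent in RS alone. Most of the 17 lay in the loci chr2:181928297-181931461, chr13:120025537-120034331 and chr19:60828917-61266901, which hold 5, 5 and 6 positions of the set among 6, 8 and 39 pooled positions. The interval treats such neighbours as independent. At that side, chr2:181930262-181930481 had 21, 50 and 67 reads in M and 27, 31 and 34 in RS. The distance was chosen after the data were seen.

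Many of the positions were neighbours. Another of the set lay within 1000 bp of 90 positions (25.9%), in 38 runs, against 2.74% and 2.67% of the sets recurrent in M alone and RS alone. The 52 distances between neighbours ranged from 142 to 950 bp, with a median of 364.5 bp, and 18 were at most 250 bp. The run with the most positions, chr13:120025537-120027081 at Gm36079, had 4, separated by 472, 175 and 320 bp. Its end positions were in all 6 lists, with 14, 10 and 15 reads in M at the left and 14, 15 and 8 in RS. At the right M had 9, 9 and 11 reads and RS had 6, 11 and 9. The 12 runs of 3 were tied, and of these the 4 with the most reads in total are described. Among them are the run in E030030I06Rik described above and chr13:3372664-3373706, with distances of 246 and 365 bp. The other 2 were chr2:181930262-181931461, with 470 and 522 bp, and chr19:61265667-61266901, with 828 and 197 bp. Neighbours in a run share sequence context and are not independent of each other.

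Not all positions were in such places. For 105 (30.3%), no other of the set and no dense bin lay within 100 kb. Of these 42 (40%) were in all 6 lists, with a median of 10 reads over lists, and 39 (37.1%) were in a protein-coding gene body. Among the other 242, 30.2% were in all 6 lists, the median was 8 reads and 29.8% were in a protein-coding gene body. Provisional symbols were nearest at 17.1% of the former and 50.8% of the latter. Chl1, Kctd16, Lars2, Vps45, Camk1d, Cdk8 and Gphn all held positions that were alone in this sense.

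No position of the set lay in, or within 1000 bp of, any of 231 autosomal genes on 6 lists chosen for this tissue. They were genes of spermiogenesis (48 found), of meiosis (49), of histone acetylation (56), of nucleosome remodelling and histone chaperones (38), and markers of spermatogonia (20) and of Sertoli and Leydig cells (22). These genes held 1007 pooled positions, from 74 at the Sertoli and Leydig cell genes to 299 at the histone acetylation genes. At the overall rate of 14.7 per 10000 positions, 1.48 positions would have been met, so the absence of any was not distinguishable from that rate at this depth. Hjurp, itself a histone chaperone, was not among the genes of these lists.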

How the data were processed

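MNase-seq of 12 samples in 6 groups was used. Reads were processed with STAR 2.5.2a and the build GRCm38/mm10, per the submitters' processing notes. The authors deposited 1 list of nucleosome calls per group, made from both replicates, per the design text of the series. Which program called nucleosomes, and at what threshold, is not given in the sources used here. Each call of 140 bp carries a p-value that the authors deposited, and no read count.

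The p-values were matched to upper tails of Poisson distributions to obtain implied reads and mean coverage. This rests on that model, and the lists hold no value per replicate. Midpoints (start + 70) of 19 autosomes outside 234 dense bins were pooled and joined within 73 bp. Genes came from the RefSeq annotation of GRCm38.p6, which has starts, ends and types but no exons in the table used, so exonic and intronic positions were not told apart. Start-site windows of chromosome 18 were not used here. The assembly is of C57BL/6J and the cells were SV129. Positions outside the promoter windows are given by coordinates, without sequence, and repeats were not annotated.

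Positions named in the text were the 12 in all 6 lists with the highest lowest-list reads, positions at genes of the 6 gene lists, those in the genes holding the most (ties included), 5 runs with the most positions (ties broken by total reads) and those in promoter windows of protein-coding genes. Other named positions follow none of these rules, and only some of them are said to have been chosen after their values were seen. The rest, such as those at Speer4d, Speer4c and Vmn2r44 and an example at a chromosome start, are illustrations only. The members and the lists were chosen with earlier results of these data known. No statistical test was run, and shares have exact binomial (Clopper-Pearson) 95% intervals that cover counting error only. Alternatives changed the joining distance, the dense bins, the number of lists required and the read minimum, and left out each list. The steps were tested on simulated data. Python 3.11.15, numpy 2.4.6, pandas 2.3.3 and scipy 1.17.1 were used.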

Additional observations from a re-analysis of the deposited data

Results flagged for a closer look

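The rule was stated for autosomes, and the same steps gave signal in calls that the report did not use. On the X chromosome 11 of 1949 pooled positions were called in at least 2 lists of each stage (0.564%, exact binomial 95% interval 0.282 to 1.01), against 0.147% on autosomes. On the Y chromosome there were 12 of 99 (12.1%, 6.42 to 20.2). On unplaced contigs there were 29 of 498 (5.82%, 3.93 to 8.26). All 3 shares were above that of autosomes, on 1949, 99 and 498 positions, and 3, 1 and 22 dense bins were left out there.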

How the results depend on the processing

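The number of positions was 347. It was 158, 616 and 1386 when bins with more than 10, more than 40 or no number of calls were dropped. It was 4192 with at least 1 list of each stage, 115 with all 3 lists of each stage and 193 with only calls above the read minimum. Leaving out 1 list gave 199 to 271, with 202, 199 and 202 without M at 1 U, M at 2 U and RS at 0.5 U. The share held by all lists, 33.1%, was 25% among positions spanning no more than 2 joining distances, 42.1% with no bins dropped, 2.74% with at least 1 list of each stage and 46.6% above the read minimum. Leaving out each list in turn gave 58.7%, 64.9%, 60.8%, 59.4%, 54.9% and 53.3%, where all lists means 5. The share inside a protein-coding gene, 32.0%, was 39.2% with bins above 10 calls dropped, 25.8% with none dropped, 40% with all 3 lists of each stage and 37.7% without M at 2 U. The share with another position within 1000 bp, 25.9%, was 37.3% and 12.8% when joining within 36 bp and within 2 times 73 bp. It was 9.49%, 41.1% and 63.9% with bins above 10, above 40 or none dropped, 19.2% with at least 1 list of each stage and 32.6% above the read minimum. The median distance between M and RS midpoints, 14 bp, was 10 and 25 bp when joining within 36 bp and within 2 times 73 bp. It was 10 bp for positions within that span, 10, 17 and 20 bp with bins above 10, above 40 or none dropped, and 24 bp with at least 1 list of each stage. It was 10 bp with all 3 lists of each stage, above the read minimum and without M at 1 U. A wider joining distance merges neighbours and lengthens positions by construction; for the other settings the cause was not tested. An alternative chosen after seeing the data, leaving out positions within 10 kb of a dense bin, gave 252 positions, 34.5%, 33.7%, 21.4% and 12.5 bp for these 5 values.

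No paired analysis was possible because each list was made from both replicates of a group and no result came from a test. Depth limits presence calls: at 6 reads, a read fewer removes a call, and between 11.1% and 24.2% of the positions of a list stood there. Above the cap of the p-values, reads are bounds only. The lists hold no replicate values, so differences between lists stand without a replicate error.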
